A study of Tupaia belangeri with 2 samples.

Results

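The 8 globin genes of the tree shrew (Tupaia belangeri) annotation, the beta-type genes HBB, HBE1 and HBG1 and the alpha-type genes HBA1, HBA2, HBZ, HBAZ and HBQ1, were examined in single-cell RNA-sequencing data from developing brain. The members were taken by gene name from 23975 gene models, and each name is borne by 1 model. The samples were the whole brains of 2 embryos at 4–5 postconceptional weeks, with 1 10x Chromium 3′ library (v3 chemistry) per embryo. There was no treatment or second genotype, so the embryos are n = 2 samples of 1 group. The dura mater and blood vessels had been taken off the brains before dissociation. The values are unique molecular identifiers (UMIs), each of which marks 1 captured transcript whatever its length, so levels of different genes can be set side by side without a correction for length. All 9241 barcodes of embryo 1 and 9685 of embryo 2 were used, with 41868023 and 38077767 UMIs. The 2 libraries shared 18 barcode sequences, each of which marks 1 barcode in each library. Of these barcodes, counted over both libraries, 6 were rich in globin.

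Haemoglobin is a tetramer of a pair of alpha-type and a pair of beta-type chains, each with a haem group that binds oxygen. In mammals the first red cells arise in the yolk sac and carry embryonic chains (zeta on the alpha side, epsilon on the beta side), and the definitive red cells that follow carry alpha and adult beta chains, a change known as the globin switch. HBE1 encodes epsilon globin, and HBG1 encodes gamma globin, which is embryonic in many mammals and fetal in apes and monkeys. HBZ and HBAZ are zeta-type names, and HBQ1 encodes theta globin, whose function is not settled. HBE1 and HBG1 were counted here as embryonic beta-type genes, HBZ and HBAZ as embryonic alpha-type genes, and HBQ1 was kept apart from both.

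The model identifiers place the 3 beta-type genes beside each other on chromosome 18 of the TS_2.0 assembly, where HBE1, HBG1 and HBB are models 366, 367 and 368. The 5 alpha-type genes are neighbours on chromosome 2, where HBQ1, HBA2, HBA1, HBAZ and HBZ are models 964, 965, 966, 967 and 968. HBA1 and HBA2, and likewise HBZ and HBAZ, can be near-identical copies in mammals. The paper states that Cell Ranger was run with its default settings. It does not describe how reads that match both of a pair were treated, and a loss of such reads was not tested. The split within each pair, and the level of each pair beside the other globin genes, are therefore uncertain.

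Globin transcripts made up 28.7% of all UMIs in embryo 1 (12011499 UMIs, exact 95% binomial interval 28.7 to 28.7) and 13.6% in embryo 2 (5162251 UMIs, interval 13.5 to 13.6). The mean was 21.1% ± 10.7 (SD, n = 2). The intervals here and elsewhere cover counting error only. HBB gave nearly all of these UMIs, with 11715405 in embryo 1 and 5019279 in embryo 2, or 97.5% and 97.2% of the globin total. HBE1 followed with 116824 and 52258 UMIs, or 0.973% and 1.01%. HBG1 had 82701 and 33354 UMIs, or 0.689% and 0.646%. The libraries of the embryos thus differed in their globin share of UMIs, but the 3 beta-type genes took like shares of the globin UMIs.

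The embryonic share of beta-type UMIs was 1.67% in embryo 1 (interval 1.67 to 1.68) and 1.68% in embryo 2 (interval 1.67 to 1.69), a mean of 1.68% ± 0.00175 (SD, n = 2). The embryonic share of alpha-type UMIs was lower, at 0.339% (interval 0.303 to 0.377) and 0.333% (interval 0.287 to 0.384). In this share HBZ had 168 and 89 UMIs, and HBAZ had 159 and 102. The adult alpha genes were far above these. HBA1 had 41394 and 27088 UMIs, and HBA2 had 29876 and 20368. HBQ1 had 24972 and 9713 UMIs, which placed it between the adult and the embryonic alpha genes in both embryos. All alpha-type genes together gave only 0.804% and 1.11% of the globin UMIs, so that beta-type transcripts outnumbered them by far. The part of the gene models and of read assignment in this share was not tested.

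To describe the switch within single barcodes, barcodes with at least 20% globin UMIs and at least 20 beta-type UMIs were called globin-rich, which gave 1822 in embryo 1 and 692 in embryo 2. These were divided by the embryonic share of their beta-type UMIs into an adult group (under 10%), a mixed group (10% to 50%) and an embryonic group (at least 50%). The adult group held 1654 and 602 barcodes and the embryonic group 168 and 90, while the mixed group held 0 barcodes in both embryos. The limit that a count of 0 allows, 3 barcodes, is 0.165% of the globin-rich barcodes in embryo 1 and 0.434% in embryo 2. The 2 groups lay far apart. The highest embryonic share in the adult group was 7.18% in embryo 1 and 0.398% in embryo 2, and the lowest in the embryonic group was 85.4% and 91.7%. Embryonic barcodes were 9.22% of the globin-rich barcodes in embryo 1 (interval 7.93 to 10.6) and 13.0% in embryo 2 (interval 10.6 to 15.7).

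**Figure D1:**
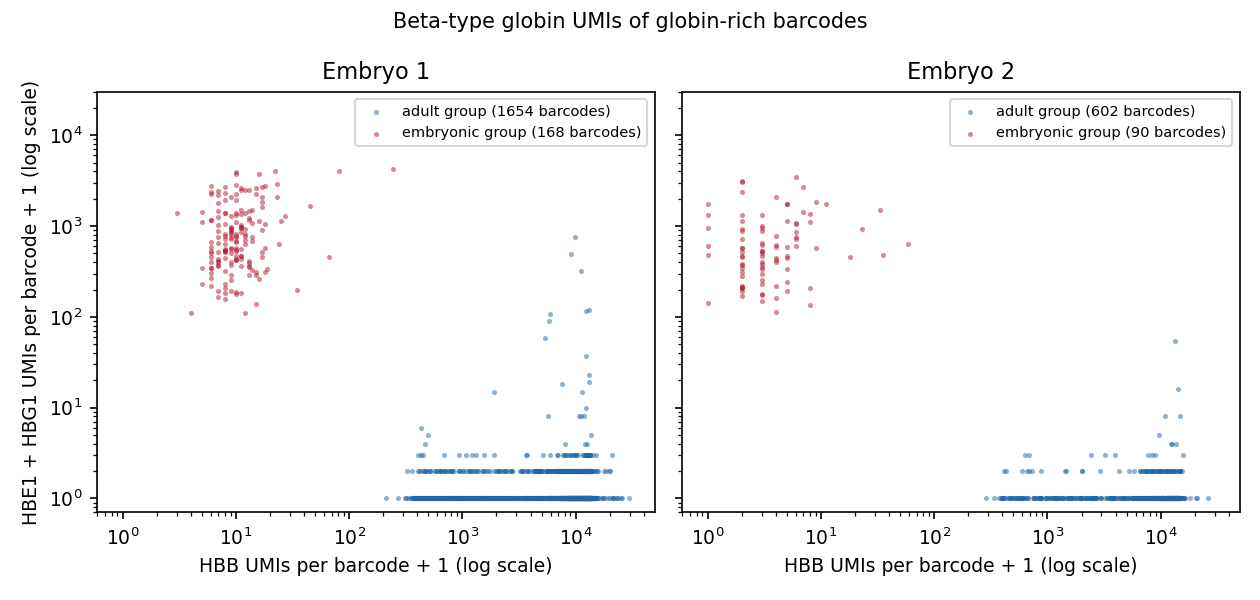
Each point is 1 globin-rich barcode, with its HBB UMIs on the x axis and its HBE1 and HBG1 UMIs together on the y axis, both plus 1 and on log scales, for embryo 1 (left) and embryo 2 (right). The 168 and 90 barcodes of the embryonic group lie at the upper left and the 1654 and 602 of the adult group along the lower right, with no barcode of either embryo in the mixed range between 10% and 50% embryonic beta-type UMIs.

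Droplets that hold 2 cells were not removed. A droplet with 1 cell of each group at their median contents, 737.5 embryonic beta-type UMIs and 7589 HBB UMIs in embryo 1, would show an embryonic share of 8.86%. In embryo 2 the medians of 552.5 and 9133 UMIs would give 5.70%. Such a droplet would thus fall in the adult group, where 7 barcodes of embryo 1 and 0 of embryo 2 had an embryonic share of 1% or more. The threshold on globin-rich barcodes could be read from the barcodes beside it. Of those with 15% to 20% globin UMIs and at least 20 beta-type UMIs, 29 of 45 in embryo 1 and 22 of 23 in embryo 2 were of embryonic majority. Of those with 20% to 25%, it was 36 of 41 and 19 of 20. In embryo 1 the adult-type barcodes were thus 16 of 45 just under the threshold and 5 of 41 just above it, and 1 of 23 and 1 of 20 in embryo 2. None of these barcodes was mixed.

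HBE1 was found almost only in the embryonic group, which held 90.1% of its UMIs in embryo 1 and 84.5% in embryo 2. Its mean was 626 UMIs per embryonic barcode (exact 95% Poisson interval 623 to 630) in embryo 1 and 491 (486 to 495) in embryo 2. In the adult group it was 0.868 (0.824 to 0.914) and 0.0914 (0.0688 to 0.119). HBG1 behaved alike, with 421 and 296 UMIs per embryonic barcode against 0.730 and 0.209 per adult barcode. The HBE1, HBG1 and HBB counts chose the groups, so these values are a description and were not tested. In embryo 1, 432 of the 1436 HBE1 UMIs of the adult group came from a single barcode. HBE1 was 3.05% of globin UMIs in 5 of its adult-group barcodes, those of cluster 11 described below. It was at most 0.0433% in the other parts of that group, and 0.00326% in the 833 barcodes with under 200 genes.

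The HBB counts also enter the share that made the groups, so the contrast between the groups is a description here as well. HBB was correspondingly low in the embryonic group. It had 2023 UMIs in the 168 barcodes of embryo 1 (interval of the mean 11.5 to 12.6 per barcode) and 394 in the 90 of embryo 2 (mean 4.38, interval 3.96 to 4.83), against means of 7026 and 8285 in the adult group. Globin-poor barcodes, those with under 2% globin UMIs, served as the background measured in the same way. The part of free RNA in their globin UMIs was not tested. They had 9.08 HBB UMIs per barcode in embryo 1 and 2.96 in embryo 2, with a median of 9 and 3. The embryonic group had medians of 9 and 2. At this depth the median HBB count of embryonic barcodes could not be told from that of globin-poor barcodes, and 6 embryonic barcodes of embryo 2 held no HBB UMI at all. HBE1 in the adult group of embryo 2 had 0.0914 UMIs per barcode, close to the 0.110 of globin-poor barcodes. In embryo 1 the adult group had 0.868 against 0.180, a mean that includes the few barcodes with a high HBE1 share given above.

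**Figure D2:**
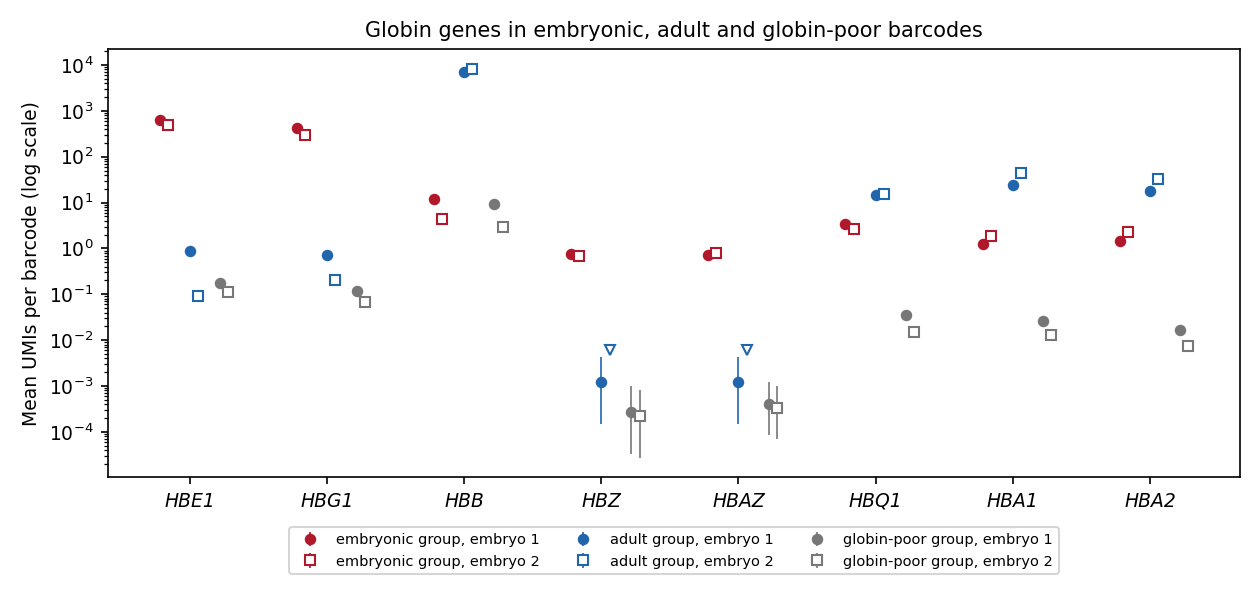
Mean UMIs per barcode (log scale) of the 8 globin genes in embryonic-group, adult-group and globin-poor barcodes of each embryo, with exact 95% Poisson intervals. Open triangles mark the upper limit where no UMI was counted (HBZ and HBAZ in the adult group of embryo 2). HBE1, HBG1, HBZ and HBAZ are highest in the embryonic group and HBB, HBQ1, HBA1 and HBA2 in the adult group.

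Embryonic barcodes also held less globin in all. Their median globin share was 34.6% of UMIs in embryo 1 and 33.2% in embryo 2, compared with 90.9% and 92.7% in the adult group. They carried more other RNA. The median of non-globin UMIs was 1446.5 and 1185 per embryonic barcode and 514.5 and 544.5 per adult barcode, and medians of 525.5 and 441.5 genes were detected in the embryonic group against 199 and 179. Of the adult group, 833 and 353 barcodes had under 200 genes. For the embryonic group it was 0 and 3.

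HBE1 and HBG1 were expressed together but not in a fixed ratio. All 168 and 90 embryonic barcodes held UMIs of both genes. HBE1 gave more UMIs than HBG1 in 111 barcodes of embryo 1 and 64 of embryo 2, and HBG1 gave more in 57 and 26. The HBE1 share of the 2 genes had a median of 57.8% in embryo 1 (quartiles 42.3 and 70.1) and 61.8% in embryo 2 (quartiles 47.1 and 76.9). Its SD between barcodes was 18.3 and 21.1 percentage points, far above the 2.12 and 2.37 that counting alone would give at these depths. The lowest share in embryo 1 was a barcode with 1 HBE1 and 109 HBG1 UMIs (0.909%), and the highest had 204 and 3 (98.6%). In embryo 2 the range ran from 5 and 187 UMIs (2.60%) to 1058 and 14 (98.7%). The balance thus varied from nearly all HBG1 to nearly all HBE1 within each embryo.

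The HBE1 share was higher in barcodes with more globin. In embryo 1 the pooled share was 53.0% in the 65 embryonic barcodes with 20% to 30% globin UMIs, 60.1% in the 74 with 30% to 50% and 62.9% in the 29 with 50% or more. In embryo 2 it was 53.9% in 37 barcodes, 61.7% in 40 and 68.0% in 13. Spearman's rho between the HBE1 share and the globin share was 0.39 over 168 barcodes and 0.18 over 90. This is a description across barcodes that share a library, and HBE1 counts enter both measures.

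**Figure D3:**
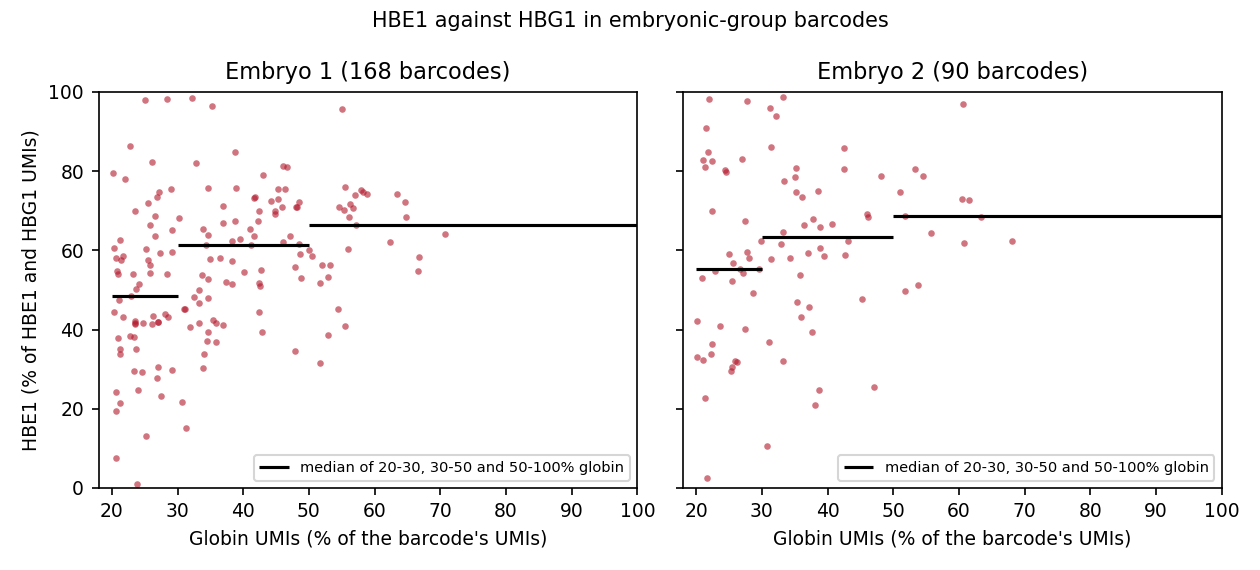
Share of HBE1 among HBE1 and HBG1 UMIs (y axis, percent) against the globin share of all UMIs (x axis, percent) for each barcode of the embryonic group, with embryo 1 on the left and embryo 2 on the right. Black lines are medians over 20% to 30%, 30% to 50% and 50% to 100% globin, which were 48.4%, 61.3% and 66.3% in embryo 1 and 55.3%, 63.4% and 68.6% in embryo 2.

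The alpha-type genes did not enter the division of the barcodes, apart from their small part in the 20% globin threshold, and they differed between the groups. HBZ had 127 UMIs in the 168 embryonic barcodes of embryo 1 and 2 UMIs in its 1654 adult barcodes, and 62 and 0 UMIs in embryo 2. HBAZ had 123 and 2 UMIs in embryo 1, and 71 and 0 in embryo 2. Per 1000000 non-globin UMIs, a level called non-globin CPM here, HBZ was 367 times higher in the embryonic group of embryo 1 (exact 95% counting interval 99.6 to 3066), and at least 116-fold higher in embryo 2 against a floor of 3 counts in its adult group. HBAZ was 356 times higher (96.4 to 2970) and at least 133-fold higher. At least 1 zeta-type UMI was present in 107 of 168 and 55 of 90 embryonic barcodes.

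The adult alpha genes went the other way. In non-globin CPM, HBA1 had 26249 and 41651 in the adult groups of embryos 1 and 2 and 790 and 1453 in the embryonic groups, a difference of 33.2 times (29.0 to 38.2) and 28.7 times (24.6 to 33.6). HBA2 had 18914 and 31227 against 932 and 1760, or 20.3 times (17.9 to 23.1) and 17.7 times (15.4 to 20.5). The size of these differences depended on the scale. As a share of globin UMIs both genes were still higher in the adult group, but by far less. HBA1 then had 0.348% and 0.529% against 0.118% and 0.231%, and HBA2 had 0.250% and 0.396% against 0.139% and 0.280%. HBA1 and HBA2 were nevertheless present in the embryonic group above the level of globin-poor barcodes. Their means were 1.26 and 1.49 UMIs per embryonic barcode in embryo 1 and 1.84 and 2.23 in embryo 2, against 0.0262 and 0.0163, and 0.0129 and 0.00740, in globin-poor barcodes. Embryonic barcodes thus paired embryonic beta-type transcripts with both zeta-type and adult alpha transcripts.

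HBQ1 depended on the scale. In non-globin CPM it was higher in the adult group, with 15322 and 14299 against 2155 and 2136 in the embryonic group, or 7.11 times (6.55 to 7.74) and 6.69 times (5.89 to 7.63). As a share of globin UMIs it was higher in the embryonic group, with 0.322% and 0.339% against 0.203% and 0.182%. Within the alpha-type UMIs of the embryonic group, HBQ1 was the most abundant single gene. It had 44.8% in embryo 1 (interval 42.1 to 47.6) and 32.8% in embryo 2 (29.4 to 36.3). In this group HBA2 had 19.4% and 27.0%, HBA1 16.4% and 22.3%, HBZ 9.84% and 8.33% and HBAZ 9.53% and 9.54%. The rank of HBQ1 rests on the uncertain split of HBA1 and HBA2. As a pair, HBA1 and HBA2 lay below HBQ1 in embryo 1 and above it in embryo 2. In the adult group the order was HBA1 with 43.4% and 47.8%, HBA2 with 31.3% and 35.8% and HBQ1 with 25.3% and 16.4%.

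UMI sums per embryo and group were then compared across all genes with edgeR's quasi-likelihood test, with the embryo as a block and library sizes without globin UMIs, leaving out the 3 genes that defined the groups. Of 3279 genes tested, 740 were higher in the embryonic group (22.6% of those tested) and 867 lower (26.4%), at an adjusted p under 0.05. Among the 5 alpha-type genes, HBZ and HBAZ were called higher and HBA1, HBA2 and HBQ1 lower. HBZ and HBAZ each had 2 and 0 UMIs in the adult group and passed the filter on low counts through the embryonic group. Their calls are therefore a description. The log2 fold change per non-globin UMI, with TMM scaling of the library sizes, was −5.11 (SE 0.114) for HBA1. It was −4.41 (SE 0.109) for HBA2 and −2.95 (SE 0.101) for HBQ1. Adjusted p-values of edgeR's quasi-likelihood test were 4.75e-286 for HBA2, 1.25e-165 for HBQ1, 4.40e-89 for HBZ and 9.68e-93 for HBAZ. The fit had 4 sums and 1 residual degree of freedom, so such small p-values rest on the spread shared across genes. Without the block, the same edgeR test gave adjusted p-values of 4.74e-06 for HBA1, 1.48e-05 for HBA2, 1.84e-07 for HBQ1, 1.54e-06 for HBZ and 2.07e-06 for HBAZ.

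Some barcodes of the adult group fell in clusters of other cells. Cells with at least 200 genes were clustered without any globin gene, and clusters were named from listed markers. Cluster 7 was erythroid-like, with 742 and 219 cells and 5 listed erythroid markers, among them AHSP and ALAS2. The adult group held 740 and 219 cells of it, 833 and 353 barcodes with under 200 genes, 5 and 0 cells of cluster 11, and 76 and 30 cells of other clusters. The last had median globin shares of 56.0% and 53.4% and carried 20.0% and 27.1% of the adult group's non-globin UMIs. AHSP was detected in 59 of these 76 and 24 of these 30 cells, at 5297 and 4514 non-globin CPM, and ALAS2 in 51 and 24, at 2210 and 2012. Droplets with a red cell and another cell were not called, and their part here was not tested. Radial glia markers, for example, summed to 1004 and 789 non-globin CPM in the adult group (11 and 10 of 11 markers detected) and to 280 and 236 in the embryonic group (7 and 4 of 11). The comparison was therefore repeated without the cells of other clusters. Of 2570 genes tested, 649 were then higher and 677 lower, and 592 and 589 of these were called in the same direction with all globin-rich barcodes.

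All 168 embryonic barcodes of embryo 1 and 87 of the 90 of embryo 2 fell in a single cluster, cluster 11, although no globin gene was used to make it. The other 3 had under 200 genes and were not clustered. Cluster 11 had 258 and 135 cells and stayed unnamed, since only 1 listed erythroid marker, EPB42, passed in it. Of its other cells, 5 of embryo 1 were in the adult group. Of the 85 and 48 cells that were not globin-rich, 82 and 47 had at least 20 beta-type UMIs, and all of these had an embryonic majority. Of the 9 listed erythroid markers, 8 had lower levels in cluster 11 than in cluster 7 in both embryos, by unequal amounts and without a test. AHSP had 420 and 189 non-globin CPM there, against 70317 and 79021 in cluster 7, and ALAS2 had 807 and 644 against 23184 and 23166. EPB42 lay closer, with 99.4 and 97.4 against 116 and 191, as did the anion exchanger SLC4A1, with 52.2 and 37.9 against 87.3 and 64.7. The erythroid factor KLF1 had 9 and 1 UMIs in cluster 11 and 3 and 2 in cluster 7. What kind of cell cluster 11 holds cannot be told from the listed markers.

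Genes named by size of the fold change were led by genes without UMIs in 1 group, whose fitted fold change depends on the counts assumed for 0. Higher in the embryonic group were NT5DC4 (42 and 18 UMIs against 0 and 0), PPHLN (26 and 24 against 0 and 0), UTF1, C20ORF114, PRELP and ARID3A, the last 4 with 4 to 13 UMIs against 0. NT5DC4 was at least 81.0-fold and 33.6-fold higher per non-globin UMI, and PPHLN at least 50.1-fold and 44.9-fold. SULT1A2, a sulfotransferase, had 95 and 31 UMIs against 2 and 0. ADA, the adenosine deaminase of purine metabolism, had 107 and 117 UMIs against 3 and 1, or 206 times (68.7 to 1016) and 656 times (115 to 26126) more per non-globin UMI. MT1E, a metal-binding metallothionein, had 165 and 152 against 4 and 2, and HPD, an enzyme of tyrosine breakdown, had 68 and 20 against 3 and 0. All 10 were also called higher without the cells of other clusters, a repeat that left out adult-group barcodes only. With 0 to 4 UMIs in the adult group of each embryo, they passed the filter on low counts through the embryonic group. Their calls in both fits are therefore a description.

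The 10 genes named as lower were AHSP and 9 genes without a UMI in the embryonic group of either embryo. AHSP, the chaperone that binds free alpha-globin chains, had 79878 and 36210 UMIs in the adult group and 68 and 34 in the embryonic group. Per non-globin UMI it was 203 times lower (160 to 262) in the embryonic group of embryo 1 and 190 times lower (136 to 274) in that of embryo 2. PLVAP, a protein of endothelial diaphragms, had 610 and 140 UMIs in the adult group and was at least 35.2-fold and 8.32-fold lower. Endothelial markers as a whole summed to 98.6 and 301 non-globin CPM in the adult group (7 of 9 detected in each embryo) and to 44.7 and 35.0 in the embryonic group (4 and 2 of 9), and their part in this was not tested. CD36, a fatty acid receptor, had 268 and 98 (at least 15.4-fold and 5.83-fold lower). RRM2, a subunit of ribonucleotide reductase, had 254 and 71 (at least 14.6-fold and 4.22-fold). IGFBP7, TMCC2, ABHD1, LOX15, GPBAR1 and FAM57A had 58 to 89 UMIs in embryo 1 and 15 to 128 in embryo 2. Of the 10, 9 were also called lower without the cells of other clusters, and IGFBP7 was not tested there. The genes without a UMI in the embryonic group passed the filter on low counts through the adult group, so their calls are a description.

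Most tested genes of haem synthesis and iron supply were lower in the embryonic group. Of 20 listed genes, 14 were in the annotation and 10 tested, of which 7 were lower, 1 was higher and 2 did not pass the test, beside 26.4% lower and 22.6% higher among all genes tested. Their median log2 fold change was −1.60, beside −0.14 for all genes tested. The first enzyme of haem synthesis in red cells, ALAS2, had 18349 and 19463 non-globin CPM in the adult group and 809 and 858 in the embryonic group, a log2 fold change of −4.67 (SE 0.114). SLC25A39, a mitochondrial carrier, had −3.93 (SE 0.214), and the lead-sensitive enzyme ALAD had −2.00 (SE 0.164). UROD, GLRX5 and FECH lay between −1.70 and −1.01. TFRC, the transferrin receptor, was higher, with 108 and 228 non-globin CPM against 32.2 and 43.7 (log2 fold change 1.86, SE 0.348). ABCB10 (0.43, SE 0.268) and the iron carrier SLC25A37 (0.06, SE 0.511) did not pass the test.

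Listed genes of red cell maturation were also lower. Of 13 listed, 10 were in the annotation and 7 tested, and all 7 were lower with both sets of barcodes. Among the 7, TRIM10 had 230 and 86 UMIs in the adult group and 1 and 0 in the embryonic group. It passed the filter on low counts through the adult group, so its call is a description. Of all genes tested, 26.4% were lower with all globin-rich barcodes, and 677 of 2570 without the cells of other clusters. BNIP3L, which removes mitochondria from maturing red cells, had 1140 and 1181 non-globin CPM in the adult group and 130 and 184 in the embryonic group (log2 fold change −3.12, SE 0.172). The ubiquitin-conjugating enzyme UBE2H had −2.43 (SE 0.210), and EPOR, the erythropoietin receptor, had −1.29 (SE 0.189). Among red cell enzymes 0 of 6 tested were higher and 2 were lower, a share near the 26.4% of all genes. The 2 were BPGM, which makes the 2,3-bisphosphoglycerate that loosens oxygen from haemoglobin, at −3.93 (SE 0.151), and the glutathione peroxidase GPX1 at −5.24 (SE 0.281). The peroxiredoxin PRDX2 had 11766 and 14220 non-globin CPM in the adult group and 12202 and 15857 in the embryonic group and did not pass the test (log2 fold change −0.05, SE 0.0878). Without the cells of other clusters PRDX2 was called lower (−0.68), and 4 of the 6 enzymes were lower, beside 677 of all 2570 genes tested.

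The red cell membrane genes were divided. Of 18 listed, 14 were in the annotation and 11 tested, with 3 higher, 1 lower and 7 not past the threshold, and a median log2 fold change of 0.17. The share higher is near the 22.6% of all genes tested, of which 26.4% were lower. Without the cells of other clusters it was 2 higher and 2 lower with a median of −0.47. Of all 2570 genes tested there, 649 were higher and 677 lower. GYPC, a glycophorin, had 1.66 (SE 0.432), and the blood group protein ERMAP had 2.61 (SE 0.514). ERMAP had 11 and 5 UMIs in the embryonic group and 9 and 4 in the adult group. It passed the filter on low counts through the embryonic group, so its call, counted among those higher, is a description. The anion exchanger SLC4A1 had 58.7 and 40.6 non-globin CPM in the adult group and 67.1 and 43.8 in the embryonic group, and it did not pass the test.

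Of 30 listed regulators of globin genes, 24 were in the annotation and 10 were tested. Of these, 4 were higher in the embryonic group, 3 lower and 3 not past the threshold. Among all genes tested 22.6% were higher and 26.4% lower, and the share lower in the list is near the latter. SOX6, which takes part in silencing embryonic globin genes, had 66 and 18 UMIs in the adult group and 1 and 0 in the embryonic group (log2 fold change −3.94, SE 0.958). Per non-globin UMI, SOX6 was 11.4 times lower (1.98 to 457) in the embryonic group of embryo 1. In embryo 2 it was at least 1.07-fold lower, so the counts of that embryo bound the difference only weakly. KLF3 was higher, with 309 and 315 non-globin CPM against 45.8 and 37.5 (log2 fold change 2.69, SE 0.261). DNMT1, the maintenance DNA methyltransferase, had 0.83 (SE 0.128), BACH1, a haem-binding repressor, had 1.41 (SE 0.398) and TAL1 had 2.43 (SE 0.530) on 7 and 5 UMIs against 7 and 4. TAL1 passed the filter on low counts through the embryonic group and SOX6 through the adult group. Their calls, counted among the 4 higher and 3 lower, are therefore a description. ATRX and the remodeller CHD4 were lower, at −0.67 (SE 0.153) and −1.52 (SE 0.279). Without the cells of other clusters, 8 were tested, of which 3 were higher and 4 lower, and HBS1L was called lower only there. Of all 2570 genes tested there, 649 were higher and 677 lower. The median of the list was 0.56 with all globin-rich barcodes and −0.38 without the cells of other clusters. TAL1 and ZBTB7A were not tested in the latter, so the 2 medians are not over the same genes.

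Genes of dividing cells were lower in the embryonic group. Of 15 listed, 14 were in the annotation and 7 tested, with 6 lower and a median log2 fold change of −1.97. RRM2, counted among the 6, had no UMI in the embryonic group and passed the filter through the adult group. Its call is a description. Of all genes tested, 26.4% were lower and 22.6% higher. MKI67, a marker of cycling cells, had 464 and 375 non-globin CPM in the adult group and 134 and 52.5 in the embryonic group, and CENPF, of the kinetochore, had 512 and 367 against 93.2 and 78.8. The dividing cell markers used to name clusters summed to 2398 and 1751 non-globin CPM in the adult group and 667 and 341 in the embryonic group, and their part in the result was not tested beyond leaving out the cells of other clusters. Without those cells 4 of 6 were lower, beside 677 of all 2570 genes tested. MKI67 then had −1.36 instead of −2.21 and the median was −1.26. Each of these lists was chosen with earlier results of these data known, and the counts describe the lists only.

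**Figure D4:**
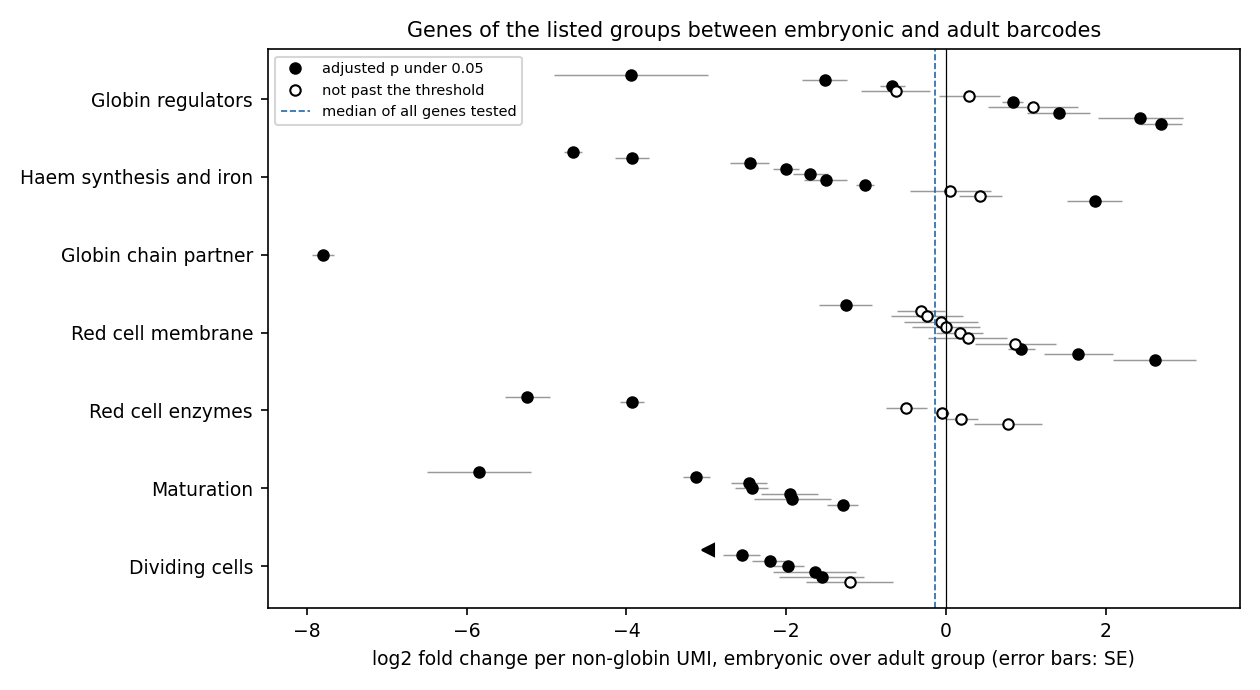
TMM-scaled log2 fold changes per non-globin UMI between embryonic and adult groups for the tested genes of the 7 lists. Bars are the standard error, and filled points had an adjusted p under 0.05 in edgeR's quasi-likelihood test. The triangle is RRM2, drawn at the mean of the bounds in the 2 embryos because it had 0 UMIs in the embryonic group, and the dashed line is the median of all genes tested (−0.14). All 7 maturation genes and 7 of 10 haem and iron genes lie to the left with filled symbols, beside 26.4% lower among all genes tested. TAL1, SOX6, ERMAP, TRIM10 and RRM2 passed the filter on low counts through the group where they were higher, so their calls are a description.

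The globin genes were next followed across the classes of brain cells. HBB was highest in the barcodes with under 200 genes, at 918883 and 932339 UMIs per 1000000 UMIs (CPM) in embryos 1 and 2, and in erythroid-like cells, at 883413 and 878838. No other class or cluster exceeded 80066. Endothelial-like cells (65598 ± 20461, SD, n = 2), microglia-like cells (44567 ± 20607) and choroid plexus-like cells (31701 ± 43735) followed, and the ranges of these 3 over the embryos overlapped. The lowest mean was in meningeal fibroblast-like cells (4984 ± 6224). These means were set by few barcodes. The median HBB count per cell was 6 to 10 in embryo 1 and 2 to 3 in embryo 2 in every class and cluster other than the erythroid-like, cluster 11 included.

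HBE1 and HBG1 were highest in cluster 11, with 182630 ± 2970 and 123000 ± 6411 CPM (SD, n = 2). HBE1 lay between 5.58 and 730 CPM in all other classes and clusters. On this scale, which counts globin UMIs in the total, its lowest mean over the embryos was in erythroid-like cells, with 35.4 and 5.58 CPM. The rank depended on the scale, since most UMIs of these cells were HBB. In non-globin CPM, HBE1 had 323 in erythroid-like cells of embryo 1, against 40.9 to 180 in the neuron-like classes. In embryo 2 HBE1 had 49.96 there, against 24.6 to 71.04. In endothelial-like cells it was 730 CPM in embryo 1 and 17.1 in embryo 2, and in meningeal fibroblast-like cells 46.7 and 401, so that the order of the other classes changed between the embryos. In the 54 meningeal fibroblast-like cells of embryo 2 the embryonic share of beta-type UMIs was 69.6%, and it was 4.02% in the 53 of them that were globin-poor, so the larger value came from 1 cell.

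**Figure D5:**
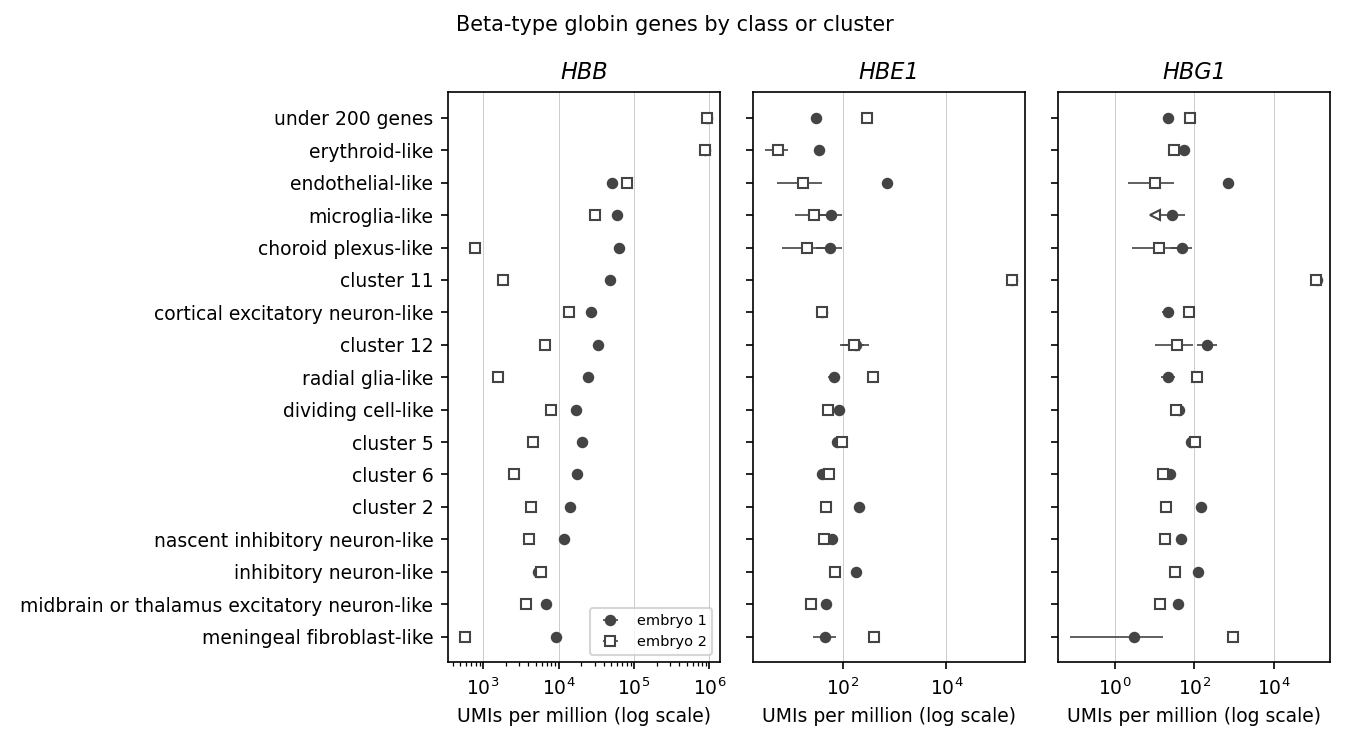
CPM (log scales) of HBB, HBE1 and HBG1 in each class or cluster and in barcodes with under 200 genes, for embryo 1 (filled circles) and embryo 2 (open squares), with exact 95% Poisson intervals. The triangle is the limit that a count of 0 allows for HBG1 in microglia-like cells of embryo 2. HBB is highest in barcodes with under 200 genes and erythroid-like cells, and HBE1 and HBG1 in cluster 11.

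Erythroid-like cells were compared with the mean of the 4 neuron-like classes in 1 edgeR fit over all named classes. Of the 8 globin genes, 6 were tested and all 6 were higher (13.8% of the 8725 genes tested were called higher), whereas HBZ and HBAZ did not pass the filter on low counts. The log2 fold change per non-globin UMI, with TMM scaling, was 11.00 (SE 0.441) for HBB and 10.53 (SE 0.142) for HBA1. It was 11.14 (SE 0.145) for HBA2 and 10.22 (SE 0.116) for HBQ1. The TMM factors were 0.580 and 0.590 for the erythroid-like sums and 1.04 to 1.17 for the neuron-like sums. They raise these fold changes over those of plain non-globin CPM. Per cell, HBB had 10556 and 12218 UMIs in erythroid-like cells against 36.7 and 16.2 in neuron-like cells. HBQ1 had 20.1 and 20.6 UMIs per erythroid-like cell, beside the adult genes.

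The calls for the embryonic beta-type genes in that comparison depended on the scale. HBE1 had a log2 fold change of 2.89 (SE 0.377), which was 3.19 in embryo 1 and 1.02 in embryo 2. By the quasi-likelihood test of edgeR its adjusted p was 1.01e-09. In cells with at least 1000 genes, clustered anew, HBE1 had 7.50 and HBG1 7.08, and all 8 globin genes were tested and called higher. The erythroid-like class there was another set, with 83 and 34 cells. No cluster at that setting had ICAM4, ADA or HPD among its leading genes, as cluster 11 had. Whether the class took in cells like those of cluster 11 was not tested. Per cell of the main erythroid-like class, however, HBE1 had 0.423 UMIs in embryo 1, within the range of the neuron-like classes (0.141 to 0.431). In embryo 2 it had 0.0776, under their range of 0.0932 to 0.170. In embryo 2 the TMM-scaled fold change of HBE1 was thus positive, while its count per cell lay under the neuron-like range. In plain non-globin CPM, given above, HBE1 in embryo 2 lay within the range of the neuron-like classes. HBG1 had 4.25 (SE 0.387) and a higher mean per cell as well, with 0.644 and 0.429 UMIs against ranges of 0.106 to 0.297 and 0.0433 to 0.312. In embryo 2, however, 53 of the 94 HBG1 UMIs of erythroid-like cells came from a single barcode, so that mean rests largely on 1 cell.

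Cluster 11 was set against the neuron-like classes in the same way, a comparison added after seeing the clusters. All 8 globin genes were called higher (15.5% of the 8690 genes tested were called higher and 20.9% lower). HBZ and HBAZ did not pass the filter on low counts without cluster 11 and passed it with this cluster in the fit. Their calls followed from that and are a description. HBE1 had a log2 fold change of 12.75 (SE 0.285) and HBG1 12.64 (SE 0.233). HBB had 1.88 (SE 0.397), but with 3.27 in embryo 1 and −1.01 in embryo 2, so the embryos differed in direction. Cluster 11 held 5 adult-group barcodes in embryo 1 and none in embryo 2. HBB was 117 UMIs per cell in embryo 1 with them and 11.5 without them, and 3.59 in embryo 2.

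Globin-poor barcodes carried a different mix from the library as a whole. Their embryonic share of beta-type UMIs was 3.17% in embryo 1 (interval 3.04 to 3.30, 7242 barcodes) and 5.68% in embryo 2 (5.42 to 5.96, 8921 barcodes), above the 1.67% and 1.68% of all barcodes. A small number of barcodes with at least 20 embryonic beta-type UMIs, 5 in embryo 1 and 6 in embryo 2, held 239 and 314 of these UMIs. Without them the shares were 2.83% and 4.62%. In the globin-poor cells of 14 classes and clusters of embryo 1 with more than 100 beta-type UMIs, the share stayed between 2.14% and 4.13%. In embryo 2 the 14 such values lay between 3.85% and 13.2%. The source of these transcripts was not tested.

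Within the adult group, HBA1 and HBA2 were not in a fixed ratio. The HBA1 share of the 2 genes, in barcodes with at least 20 of their UMIs, had a median of 57.1% in embryo 1 (1247 barcodes) and 56.8% in embryo 2 (537 barcodes). Its SD between barcodes was 12.4 and 12.6 percentage points, beside 7.39 and 6.13 from counting. The share was higher in barcodes with fewer UMIs (Spearman's rho −0.61 and −0.68), a description across barcodes of 1 library each. In barcodes with under 200 genes HBA1 gave 0.448% and 0.609% of globin UMIs and HBA2 0.234% and 0.371%. In erythroid-like cells of the adult group the 2 genes were nearer to each other, at 0.305% and 0.466% against 0.259% and 0.423%.

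Across 32 sums of class or cluster and embryo, the genes whose log2(CPM + 1) was most like that of HBB, among 6003 genes with a mean of at least 10 CPM, were AHSP (Pearson's r = 0.94), MPP1 (0.91), ALAS2 (0.85), BPGM (0.82) and ISG20 (0.82). For HBE1 they were HPD (0.89), ICAM4 (0.83), FAHD2A (0.81), C20ORF111 (0.81) and SOD1 (0.77). Among the globins HBG1 (0.93), HBZ (0.92) and HBAZ (0.91) were closest to HBE1, whereas HBB was not (0.01). These are descriptions over sums that share 2 libraries and, for HBE1, rest on cluster 11. Their direction between the embryonic and adult groups follows from this choice. SOD1, for example, had 1098 and 1045 non-globin CPM in the adult group and 5022 and 6838 in the embryonic group.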

How the data were processed

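Single-cell libraries of 2 tree shrew embryonic brains (10x 3′ v3) were processed by the authors with Cell Ranger 3.1.0 on TS_2.0. The deposited values are raw UMI counts per gene model and barcode, and were used without further normalization. The members and lists were chosen with earlier results of these data known.

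Library totals were 41868023 and 38077767 UMIs. All barcodes were kept, and no doublets were called or removed. Cells with at least 200 genes were clustered without globin genes (2000 variable genes, 20 components, 20 neighbours, Leiden resolution 0.5, leidenalg 0.10.2, scikit-learn 1.9.0). Naming a cluster took 3 or more listed markers, each detected in 10% or more of the cells and 2-fold or more above the rest. UMI sums per embryo and class or group were tested with edgeR 4.0.16 (R 4.3.3; quasi-likelihood test, TMM, library sizes without globin UMIs, embryo as block, Benjamini-Hochberg adjustment). The embryo block follows from each pair of sums coming from 1 animal. The mixed group, planned as a further level, held 0 barcodes, so the comparison of groups had 4 sums and 1 residual degree of freedom. The embryos were 1 sample each. The p-values of the comparison of groups rest largely on the spread shared across genes, not on that between the embryos for each gene. Named genes were the 10 with the largest fold change in each direction among those past the threshold with the same sign in both embryos, the 5 non-globin genes most correlated with HBB and with HBE1, and the listed genes, some of which are not reported here. The list counts, chosen in this way, carry no test. Intervals were exact (Poisson or Clopper-Pearson, 95%, scipy 1.17.1), and the floor was 3 counts. Alternatives changed the scaling, filters, block, thresholds and tool (DESeq2 1.42.0), and 1 comparison without cells of other clusters, like that of cluster 11, was added after seeing the data. On simulated data with 200 genes changed 4-fold, 86.5% were recovered in the comparison of erythroid-like with neuron-like cells (7534 genes; 6.99% of calls were false) and 79.5% in that of the groups (2935 genes; 0% false). The changed genes had a mean of at least 20 UMIs per sum, and all genes had 1 common spread and no difference between embryos. These rates therefore do not carry over to genes with few UMIs or to the share of genes called in the data.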

Additional observations from a re-analysis of the deposited data

How the results depend on the processing

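None of 170 alternative values was marked as reversed, but only the log2 fold changes of single globin genes have a direction that could reverse. Of the counts and shares that are main results, 17 were marked as moved and 30 as the same. Of 115 for single globin genes, the 93 with a test kept their side of the threshold, and the 22 with 1 embryo left out had no test. The 93 include HBZ and HBAZ between the groups, which passed the filter on low counts through the embryonic group. Their part in this count is a description. In cells with at least 1000 genes, HBE1 in erythroid-like cells moved from 2.89 to 7.50 and HBG1 from 4.25 to 7.08 (log2), and genes called higher from 1202 to 475. That setting was clustered anew, with 83 and 34 erythroid-like cells in embryos 1 and 2 in place of 742 and 219. The class was thus not the same set of cells. The globin share of all UMIs was 2.88% in cells with at least 1000 genes. The embryonic beta-type share was 2.60% with at least 200 genes, 2.08% with at least 1000, 1.46% in globin-rich barcodes, 11.0% as their mean, 1.00% with HBE1 alone and 1.73% without globin-rich barcodes of clusters other than 7 and 11. The embryonic alpha-type share under these settings was 0.547%, 0.574%, 0.251% and 2.05%, then 21.7% with HBQ1 added and 0.346% without those clusters. Between the groups, DESeq2 called 280 genes higher and 249 lower, and grouping by HBE1 alone 397 and 429. With 1 embryo left out, the globin share was 13.6% to 28.7%, the beta-type share 1.67% to 1.68% and the alpha-type share 0.333% to 0.339%. The cause of these shifts was not tested. A globin-rich threshold of 50% could not be run, since it left 13 embryonic barcodes in embryo 2.

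Without the embryo as a replicate block, 622 genes were higher and 710 lower between the groups, and 6 of 6 globin genes stayed higher in erythroid-like cells, so the pairing changed no globin call. DESeq2 moved the median of all genes in that comparison by 0.25 (log2). With 1 library per embryo, depth and embryo cannot be told apart.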
